A study of Mus musculus with 18 samples.

Results

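Whole ovaries of Elavl2 knockout mice were compared between the embryonic stages E15.5 and E17.5, named for days after mating, so that the changes of gene expression that take place over these days in the absence of Elavl2 could be described. The 6 arrays compared, of 18 in the series, were those whose titles name a knockout at either stage, 3 arrays for each. The 3 wild type arrays of each of these stages were used for comparison. The arrays of newborn ovaries (P0) entered the estimate of the spread, the filter of probes and the choice of probe for each gene. A gene counted as measured may thus have passed the filter through the P0 arrays alone. All samples were XX gonads, dissected whole, with total RNA labelled with Cy3 and hybridised to a 1-colour Agilent array. The labels name the knockout animals only as Elavl2 knockout, and no strain, allele, deleted part or Cre driver is given, nor whether the 3 samples of a group came from separate animals, so the spread behind each p-value is that between these samples and may be technical. The sample type is given as mixed, without saying what was combined.

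The ELAV family, to which the product of Elavl2 belongs, consists of RNA-binding proteins that bind AU-rich and U-rich stretches of mRNA and act on splicing, stability and translation. In the fetal mouse ovary, germ cells leave mitosis, switch on Stra8 under retinoic acid and enter meiotic prophase, pair and recombine their chromosomes, and later arrest and form primordial follicles with the surrounding pregranulosa cells. The transcription factors Figla, Lhx8, Nobox and Sohlh1 act in the oocyte programme that follows, which includes the genes of the zona pellucida, the coat of the egg.

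The starts of the genes at both ends of this sequence are shown because the regulators named above are known to act there. The 250 bases before the annotated start were taken from RefSeq (build GRCm38.p6) for Stra8, the gene with the largest fall, for Nobox, and for Zp3. Entries were found for these and for Lhx8. Each sequence is written 5′ to 3′ on the gene's own strand and ends at the base before the start. Capitals mark AGGTCA, the element bound by retinoic acid receptors, in Stra8, and CANNTG, the E-box bound by factors such as Figla, in Nobox and Zp3.
Stra8, chr6:34920698-34920947, plus strand: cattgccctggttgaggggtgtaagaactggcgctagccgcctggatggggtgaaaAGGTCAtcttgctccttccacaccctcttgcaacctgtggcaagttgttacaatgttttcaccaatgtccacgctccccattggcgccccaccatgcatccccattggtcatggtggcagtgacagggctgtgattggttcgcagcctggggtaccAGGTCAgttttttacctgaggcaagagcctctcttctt
Nobox, chr6:43309555-43309804, minus strand: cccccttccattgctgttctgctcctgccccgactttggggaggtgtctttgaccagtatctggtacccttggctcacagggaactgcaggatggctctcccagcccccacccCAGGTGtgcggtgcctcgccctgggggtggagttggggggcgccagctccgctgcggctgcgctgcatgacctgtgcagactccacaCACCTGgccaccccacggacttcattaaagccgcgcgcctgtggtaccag
Zp3, chr5:135979855-135980104, plus strand: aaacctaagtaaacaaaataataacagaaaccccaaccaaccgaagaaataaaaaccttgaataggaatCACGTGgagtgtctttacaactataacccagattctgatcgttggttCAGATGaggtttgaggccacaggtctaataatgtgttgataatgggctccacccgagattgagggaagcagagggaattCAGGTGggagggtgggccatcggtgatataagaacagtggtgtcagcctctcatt
Both strands were searched. Stra8 held AGGTCA at 194 and at 38 bases before the start, and 14.0% of 32851 RefSeq promoter windows of this length held it. Nobox held it once on the other strand, 70 bases before the start. Zp3 held 3 E-boxes, the nearest 55 bases before the start, and Nobox had 2, at 137 and at 50 bases. An E-box was present in 66.2% of all windows, and none was found in that of Lhx8. The letters TAATTG or TAATTA, to which NOBOX binds, were in 11.3% of windows and in none of these 4. A match is a description of the letters and does not show that a factor binds there.

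Values are log2 intensities minus the 75th percentile of the same array, so that 0 is the level below which 3 in 4 of an array's spots lie, and every change is E17.5 minus E15.5 on this log2 scale. The 3 arrays of each group limit the precision. Of the 6 knockout arrays, between 63.1% and 75.7% of probes were well above background. The arrays were scanned in 2 runs: all E15.5 arrays and E17.5 array 3 in run A, and E17.5 arrays 1 and 2 in run B. The run was a term of the fit (limma over all 18 arrays), estimated from the E17.5 arrays of both genotypes, so a difference between runs is shared by the changes of knockout and wild type. Run B held no E15.5 array, so within-run values are E17.5 array 3 against the 3 E15.5 arrays of run A. A fit with the run term but without E17.5 knockout array 3 takes that term from the wild type E17.5 arrays alone. The tissue label was checked against 33 markers of 11 cell types: 32 were measured, and 31 were above background on all 6 knockout arrays, including the germ cell genes Ddx4, Dazl and Mael, the pregranulosa genes Foxl2, Wnt4 and Fst and those of Sertoli cells, mesonephros and smooth muscle. Red cell genes moved between arrays of a group: the median level of 25 of them was 1.89, -1.97 and -1.23 in E15.5 arrays 1 to 3 and -2.20, -0.20 and 1.61 in E17.5 arrays 1 to 3. E15.5 array 1 and E17.5 array 3 stood apart as rich in red cell RNA, and counts that rest on them are also given without both.

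Elavl2 itself, read by a probe at chr4:90918411-90918470 (build mm9), was measured at 1.88, 2.02 and 2.11 in the 3 knockout arrays of E15.5 and at 2.98, 2.77 and 2.19 in those of E17.5. Its signal remained above background in every knockout array. The fitted change in knockout was 0.34 (SE 0.15, adjusted p = 0.123), against 1.09 (adjusted p = 0.00032) in wild type, and the difference between these changes was -0.76 (adjusted p = 0.0989). Without the run term the knockout change was 0.64 (adjusted p = 0.0114). Since the deleted part of the gene is not given, the probe may lie outside it and does not check the genotype label. Of the other ELAV genes, Elavl3, best known from neurons, fell: its levels were -0.39, -0.27 and -0.53 at E15.5 and -4.02, -3.77 and -3.40 at E17.5, a change of -3.42 (SE 0.24, adjusted p = 1.25e-06) in knockout and -3.47 in wild type. Elavl4 changed by -0.38 (adjusted p = 0.129) and the widely expressed Elavl1 by -0.02 (adjusted p = 0.925), neither past the threshold.

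Between E15.5 and E17.5 the knockout ovary changed the level of many genes. In each of the 4 meiotic lists 56% to 80% of the genes fell, while 4 of 10 oocyte transcription factors, 17 of 43 genes of oocyte growth, 9 of 32 of stroma and 15 of 25 of macrophages were called higher, the last with a count that turned on E17.5 array 3. Of 19299 genes tested, 4199 (21.8%) passed the threshold, a p under 0.05 after Benjamini-Hochberg adjustment, 2272 higher (11.8%) and 1927 lower (9.98%) at E17.5, and 1303 of them by at least 2-fold; a gene that passed it is said to be called. Without the run term 5237 genes (27.1%) were called, 2736 of them higher (14.2%), and 1558 of the 2272 and 1620 of the 1927 genes were also called there. Fewer genes were called with arrays left out. There were 1188 higher and 972 lower without E15.5 array 1 and E17.5 array 3, and 1431 and 1081 without E17.5 array 3 alone. The balance of rises and falls depended on the scaling: with arrays scaled to their median, 992 genes were higher and 2869 lower, since the median change of all genes moved from 0.10 to -0.09. Fitted on run A alone, where E17.5 is represented by array 3, 705 genes were higher and 1248 lower.

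**Figure D1:**
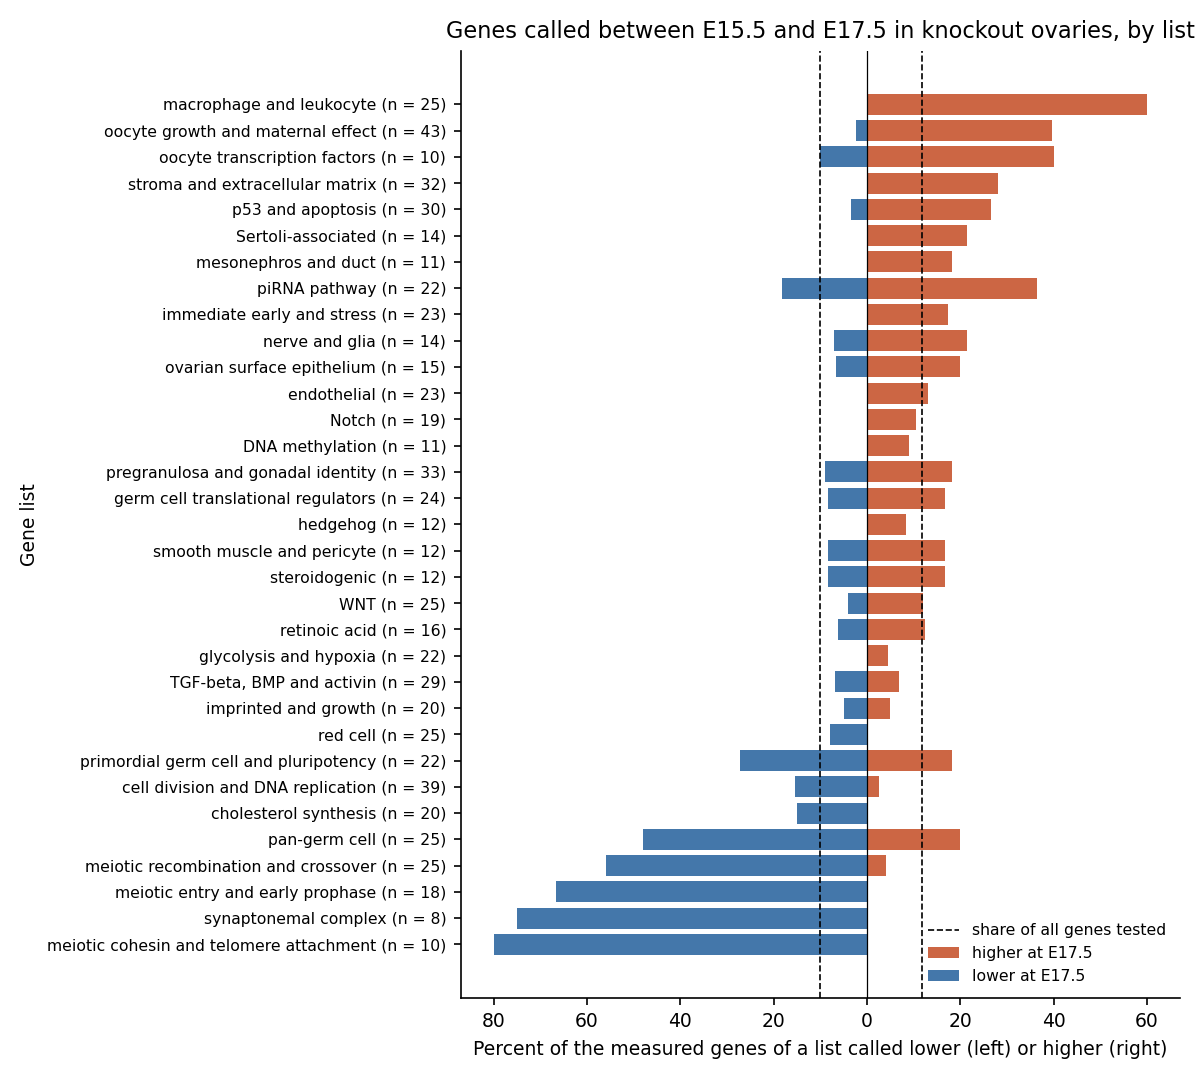
Percent of the measured genes of each list with 8 or more that were called lower (blue, left) or higher (orange, right) at E17.5 in knockout ovaries, with the number measured in brackets; dashed lines mark the share of all genes tested, 9.98% lower and 11.8% higher. The 4 lists of meiosis stand at the bottom, with 56% to 80% of their genes lower, and macrophage and oocyte growth genes at the top.

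Genes of meiotic entry declined, Stra8 the furthest. Of 18 measured genes of meiotic entry and early prophase, 12 fell and 0 rose, with a median change of -1.12, against 0.10 over all genes. Stra8, whose product is needed for germ cells to enter meiosis, had levels of 5.42, 5.84 and 5.72 at E15.5 and -2.06, -1.11 and -0.39 at E17.5. It was among the brighter genes on every E15.5 array and dim, though above background, on every E17.5 array. The change was -6.62 (SE 0.52, adjusted p = 3.39e-06), the largest fall of the genes named by rule, and -7.70 in wild type, with no call for the difference (1.08, adjusted p = 0.47). Its probe lay at chr6:34889231-34889290 (build mm9).

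Genes that make and position the DNA breaks of early prophase followed. Iho1, a partner of the break machinery on chromosome axes, went from 1.16, 1.46 and 1.47 to -2.16, -2.05 and -1.59, a change of -3.16 (SE 0.15, adjusted p = 2.34e-07). Spo11, which cuts the DNA, went from 0.45, 0.51 and 0.65 to -1.38, -1.12 and -0.81, a change of -1.38 (SE 0.18, adjusted p = 0.000157). The stages did not overlap for either gene. Mei1, needed for break formation, fell by 1.50 (SE 0.14), and Hormad2, a checkpoint protein of unpaired axes, by 1.94 (SE 0.12). Meioc, which keeps germ cells in the meiotic programme, gave -1.73 (SE 0.30). Of the 6 members that were not called, Hormad1 gave -0.51 (adjusted p = 0.0599), Rec8 -0.84 (adjusted p = 0.117) and Mei4 -0.63 (adjusted p = 0.369), and the other 3 lay between -0.06 and 0.22. Without E15.5 array 1 and E17.5 array 3 the count was 10 of 18 lower, beside 972 of all 19299 genes in that fit.

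Of 25 genes of meiotic recombination and crossover formation, 14 fell and 1 rose (median -0.43). Dmc1, the meiotic recombinase, had levels of 0.40, 0.14 and 0.45 at E15.5 and -2.43, -2.07 and -2.18 at E17.5. Msh5, which stabilises crossover intermediates, had -0.29, -0.37 and -0.14 at E15.5 and -3.81, -3.54 and -2.98 at E17.5. Both genes were lower on every E17.5 array, with changes of -2.61 (SE 0.25, adjusted p = 1.61e-05) and -3.00 (SE 0.20, adjusted p = 8.4e-07). The damage kinases Atr and Atm fell by 1.32 (SE 0.13) and 1.02 (SE 0.12). Mnd1, which works with the recombinases, was the member that rose: 0.90, 1.04 and 0.95 became 1.64, 1.60 and 1.42, a change of 0.57 (SE 0.14, adjusted p = 0.0104), and its wild type change was 0.73. Rnf212, which marks crossover sites, gave -0.07 (adjusted p = 0.771) and did not pass the threshold. Without E15.5 array 1 and E17.5 array 3, 7 of 25 were called lower, beside 972 of all 19299 genes in that fit.

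The mRNAs of proteins that hold paired chromosomes together fell as well. Of 8 genes of the synaptonemal complex, the zipper between paired chromosomes, 6 fell and 0 rose (median -0.86). Tex12 of the central element had levels of 3.67, 3.84 and 3.81 at E15.5 and 2.42, 2.30 and 2.19 at E17.5, and the change was -1.56 (SE 0.14, adjusted p = 7.46e-06). Syce1, of the same element, went from 3.98, 4.19 and 4.18 to 2.92, 2.56 and 2.72, a change of -1.23 (SE 0.17, adjusted p = 0.000253), while wild type gave -0.20 (adjusted p = 0.429). Both genes were lower on all 3 E17.5 arrays. Sycp1, the transverse filament, was different: 3.59, 3.68 and 3.50 at E15.5 and 3.66, 3.56 and 2.77 at E17.5, so that only array 3 was low. Its call (change -0.73, adjusted p = 0.00121) ended without the run term (-0.26, adjusted p = 0.396). Sycp3, of the lateral element, gave -0.35 (adjusted p = 0.0846). Without E17.5 array 3 the list's count was 3 of 8 lower, and without E15.5 array 1 as well it was 2. Of all 19299 genes 1081 and 972 were called lower in these fits.

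Cohesin and telomere attachment genes formed the list with the largest share of falls, 8 of 10, with 0 rises and a median of -1.58. Stag3, a cohesin subunit of meiosis, had levels of 4.32, 4.23 and 4.26 at E15.5 and 2.59, 2.08 and 2.19 at E17.5, a change of -1.97 (SE 0.15, adjusted p = 2.1e-06). Terb2, which ties telomeres to the nuclear envelope, went from -0.31, -0.15 and -0.21 to -2.21, -2.25 and -2.17, a change of -1.93 (SE 0.14, adjusted p = 1.85e-06). The E17.5 arrays of Terb2 lay close together, and neither gene's stages overlapped. Its partners Terb1 and Majin gave -1.52 (SE 0.12) and -1.78 (SE 0.15), and Kash5, the link to the motor outside the nucleus, -1.65 (SE 0.13), although 1 of its 2 probes changed the other way. Smc1b (-0.86) and Sun1 (-0.48) fell less, and Rec8 and Sgo2a (-0.30, adjusted p = 0.305) did not pass the threshold. Without E17.5 array 3, 6 of 10 were called lower, beside 1081 of all 19299 genes in that fit.

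**Figure D2:**
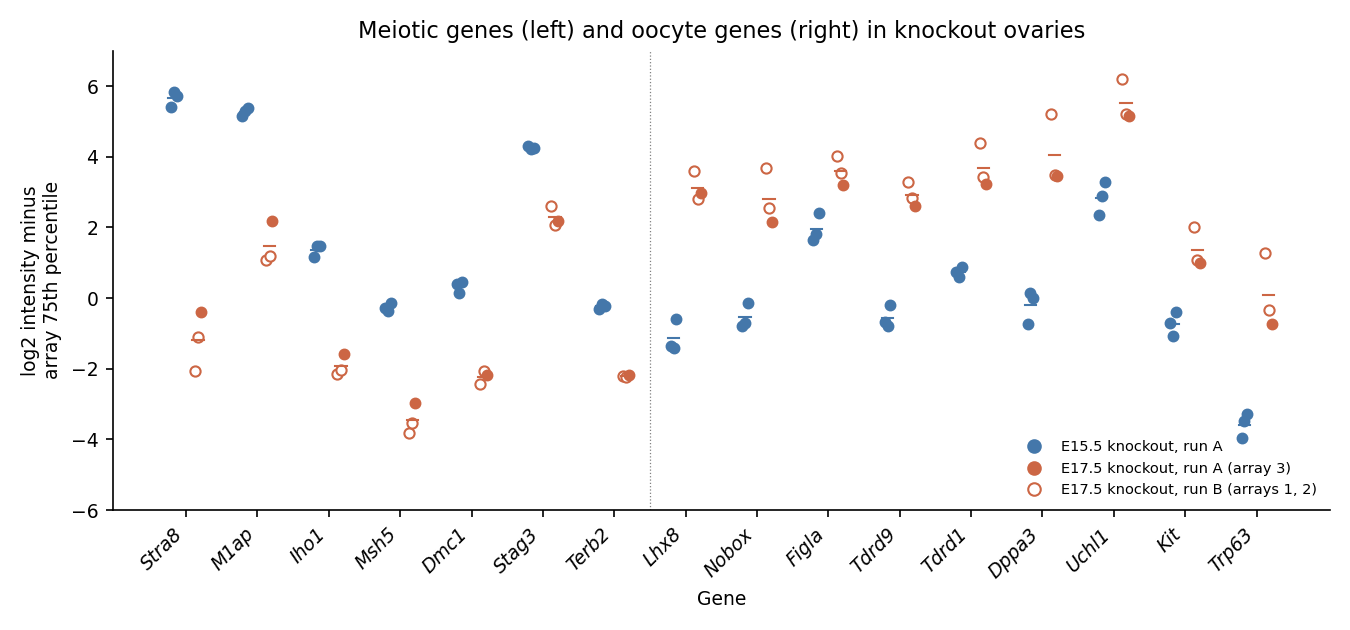
Level (log2 intensity minus the array's 75th percentile) of 16 genes in each knockout array: E15.5 in blue, E17.5 in orange, filled for run A and open for run B, with short lines at the mean of 3 arrays. Each of the 7 meiotic genes on the left is lower on every E17.5 array than on any E15.5 array. Each of the 9 oocyte genes on the right is higher, and E17.5 array 1 is the highest for all 9. The 16 genes are a selection, so these counts do not give the share of such genes in a list. Of all 19299 genes, the knockout stages did not overlap for 3326 that were lower and 3691 that were higher at E17.5.

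Genes expressed in germ cells in general moved both ways. Of 25 such genes 12 fell and 5 rose (median -0.32), and all 25 were above background on every knockout array of both stages. Ddx4, a helicase that marks germ cells throughout, had levels of 3.83, 3.93 and 3.88 at E15.5 and 3.50, 3.24 and 2.97 at E17.5 and changed by -0.67 (SE 0.17, adjusted p = 0.0143). Dazl, an RNA-binding regulator of germ cell translation, had 3.64, 3.80 and 3.71 at E15.5 and 3.71, 3.30 and 3.06 at E17.5 and changed by -0.51 (SE 0.16, adjusted p = 0.0388). The stages did not overlap for Ddx4 but did for Dazl, whose E17.5 array 1 was as high as E15.5. In whole tissue, fewer germ cells and less mRNA in each cannot be told apart. Tex101 and Boll fell further, by 1.65 (SE 0.15) and 1.74 (SE 0.24), and Nxf2 rose by 1.88 (SE 0.21, adjusted p = 5.39e-05). Without E15.5 array 1 and E17.5 array 3, 3 genes were called lower and 4 higher, beside 972 and 1188 of all 19299 genes.

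Of 22 genes of primordial germ cells and pluripotency, 6 fell and 4 rose (median 0.06). Without E15.5 array 1 and E17.5 array 3, 2 fell and 3 rose (median 0.12), and without the run term the median was -0.18. The median level of the list was highest in array 3 of each stage, -1.86 at E15.5 and -1.34 at E17.5. Sox2, a pluripotency factor, had levels of -4.94, -4.19 and -4.96 at E15.5, above background on 3 arrays, and -6.92, -6.46 and -6.96 at E17.5, above background on none. The change is therefore given as at least 2.4-fold lower (adjusted p = 0.00106), and the wild type change did not pass the threshold (-1.17, adjusted p = 0.0552). Kit, the receptor of Kit ligand on germ cells and growing oocytes, rose from -0.70, -1.08 and -0.39 to 2.02, 1.06 and 0.99, a change of 2.03 (SE 0.32, adjusted p = 0.000825). Dppa4 rose by 1.33 (SE 0.27), and Dppa5a fell by 0.86 (SE 0.28).

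Part of the oocyte programme was called higher in the knockout. Of 10 oocyte transcription factors, 4 rose and 1 fell (median 0.89). Lhx8, needed for primordial follicles and oocyte genes, had levels of -1.37, -1.40 and -0.60 at E15.5 and 3.61, 2.81 and 2.97 at E17.5. Nobox, which drives many oocyte genes, had -0.79, -0.69 and -0.14 at E15.5 and 3.68, 2.56 and 2.15 at E17.5, and Figla, which drives the zona genes, 1.64, 1.81 and 2.40 at E15.5 and 4.02, 3.55 and 3.20 at E17.5. For these 3 genes every E17.5 array exceeded every E15.5 array. The changes were 4.40 (SE 0.48, adjusted p = 4.61e-05) for Lhx8, 3.21 (SE 0.46, adjusted p = 0.000365) for Nobox and 1.40 (SE 0.25, adjusted p = 0.00175) for Figla. In wild type they were 4.31, 4.89 and 1.97, and no difference between the genotypes was called (adjusted p = 0.969, 0.219 and 0.425). Sohlh2 gave -0.07 (adjusted p = 0.796), and Nr6a1 fell by 0.41 (SE 0.11, adjusted p = 0.0174).

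Of 22 genes of the piRNA pathway, which silences transposons in germ cells, 8 rose and 4 fell (median 0.46). Tdrd9, a helicase of this pathway, had levels of -0.68, -0.78 and -0.19 at E15.5 and 3.30, 2.83 and 2.60 at E17.5, and the scaffold Tdrd1 had 0.74, 0.60 and 0.87 at E15.5 and 4.39, 3.42 and 3.22 at E17.5. The stages did not overlap for either. The changes were 3.40 (SE 0.45, adjusted p = 0.000186) and 2.87 (SE 0.35, adjusted p = 0.000113), and those of wild type 3.47 and 3.12. Henmt1, which methylates the ends of piRNAs, rose by 2.16 (SE 0.28), and the PIWI protein gene Piwil2 by 1.33 (SE 0.26). Piwil1 was below background on all 3 E15.5 arrays and above it on all 3 E17.5 arrays, a rise of at least 5.54-fold (adjusted p = 0.000536). Among the 4 that fell were Tdrkh (-0.73, SE 0.11) and Rnf17 (-1.34, SE 0.22), whose call ended without the run term (adjusted p = 0.137). Piwil4 gave 0.01 in knockout (adjusted p = 0.992) and 1.85 in wild type (adjusted p = 0.00349), with no call for the difference (adjusted p = 0.101). E17.5 array 1 was the highest of the 6 for all 8 genes that rose, and without E17.5 array 3, 10 rose and 1 fell. That fit takes its run term from wild type alone. Leaving out the term too, where stage and run cannot be told apart, gave 11 rises and 3 falls.

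Genes of oocyte growth and maternal effect, whose products are stored for the early embryo, were called higher in part. Of 43 measured, 17 rose and 1 fell (median 0.89), 25 were above background on all 3 E17.5 knockout arrays and 6 on none. Dppa3, a maternal factor that protects DNA methylation in the early embryo, had levels of -0.72, 0.13 and 0.01 at E15.5 and 5.22, 3.48 and 3.47 at E17.5, a change of 4.12 (SE 0.50, adjusted p = 0.000108). Uchl1, a ubiquitin hydrolase abundant in oocytes, went from 2.34, 2.89 and 3.29 to 6.19, 5.22 and 5.16, a change of 2.71 (SE 0.35, adjusted p = 0.000161). Every E17.5 array exceeded every E15.5 array for both, and array 1 was the highest. Nlrp5, of the maternal complex under the egg's membrane, was below background on all E15.5 arrays and stood at -2.77, -4.43 and -3.67 at E17.5, a rise of at least 4.83-fold (adjusted p = 9.89e-05). Bcl2l10, of the BCL2 family, likewise rose at least 4.19-fold (adjusted p = 0.000543), from below background to -2.56, -4.59 and -4.33.

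Ooep, a partner of Nlrp5, rose by 2.34 (SE 0.56, adjusted p = 0.0108), and Gdf9, a growth factor from the oocyte, by 1.07 (SE 0.33, adjusted p = 0.0357). Other members of the same complex did not pass the threshold: Padi6 had levels of -3.00, -2.59 and -2.71 at E15.5 and -0.68, -2.97 and -2.18 at E17.5 (change 1.36, adjusted p = 0.157), and Khdc3 changed by 1.71 (adjusted p = 0.0701). For Padi6 E17.5 array 1 was high and array 2 lay among the E15.5 values. Nlrp14 (-0.04, adjusted p = 0.979) and Oog1 (0.43, adjusted p = 0.755) were not called in knockout, while they rose in wild type by 3.43 (adjusted p = 0.00986) and 3.63 (adjusted p = 0.00896). Ddx4, described above, was the member that fell. E17.5 array 1 was the highest of the 6 knockout arrays for 15 of the 17 genes that rose, and the median level of the list was -2.93 there, against -4.59 and -4.33 in E17.5 arrays 2 and 3 and -5.58 to -4.95 at E15.5. Without E17.5 array 1, 16 genes rose, without E17.5 array 3, 21 (median 2.23), and without E17.5 array 3 of wild type, which enters the estimate of the run, 6 (median 0.54). The median of 2.23 rests on a run term taken from wild type alone. Leaving out that term too, where stage and run cannot be told apart, gave 18 rises and a median of 0.91. Within run A 9 rose, and with arrays scaled to their median 11.

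Of 5 measured genes of the egg coat 4 were called higher (median 2.27, and 0.62 without the run term). Set against E15.5, E17.5 array 3 gave a median of 1.79 and the run B arrays 0.12. The fitted changes of this list, that of Zp3 included, hold the run term, which is shared with wild type. Zp2 was below background on all E15.5 arrays and stood at -1.80, -3.86 and -4.39 at E17.5, a rise of at least 5.83-fold (adjusted p = 0.00198). Zp3 had levels of -5.87, -5.75 and -5.40 at E15.5 and -3.69, -4.44 and -3.88 at E17.5, a change of 2.49 (SE 0.51, adjusted p = 0.00439). Both were higher on every E17.5 array. Zp1 and the egg protease gene Astl were called too, but their levels were -6.34, -5.19 and -4.20 at E15.5 and -6.11, -6.17 and -3.53 at E17.5 for Zp1 and -8.04, -7.37 and -5.10 at E15.5 and -6.19, -7.75 and -4.71 at E17.5 for Astl, each above background on 1 array of each stage. Array 3 was the highest of its stage for both genes, and the arrays numbered 3 shared a slide. Without the run term Zp1 gave -0.03 (adjusted p = 0.983) and Astl 0.62 (adjusted p = 0.638), and the list's count was 2 of 5.

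**Figure D3:**
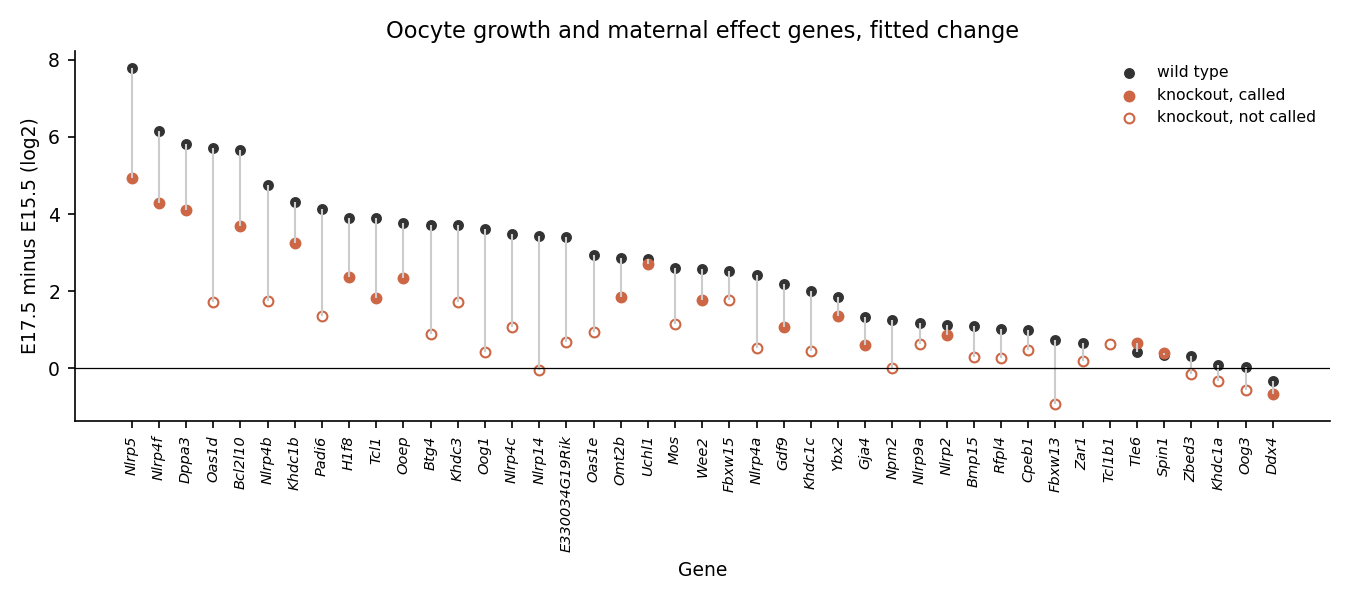
Fitted change from E15.5 to E17.5 (log2) of the 43 oocyte growth and maternal effect genes in wild type (black) and knockout (orange, filled where called), ordered by the wild type change; a grey line joins the values of a gene. The knockout value lies below that of wild type for 41 of 43 genes.

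Genes of the supporting cells changed less. Of 33 genes of pregranulosa cells and gonadal identity, 6 rose and 3 fell (median 0.14). Fst, follistatin, an antagonist of activin made by the pregranulosa cells, had levels of 2.26, 2.48 and 1.86 at E15.5 and 0.74, 0.90 and 0.93 at E17.5, a change of -1.48 (SE 0.20, adjusted p = 0.000253). Esr2, an oestrogen receptor, had -5.27, -5.48 and -5.41 at E15.5 and -3.46, -3.78 and -4.08 at E17.5 and changed by 1.61 (SE 0.22, adjusted p = 0.000267). The stages did not overlap for either, and wild type gave -1.50 and 1.64. Nr5a2, a nuclear receptor of granulosa cells, rose by 1.10 (SE 0.23), Inha, an inhibin subunit, by 0.55 (SE 0.13), and Lhx9 fell by 0.56 (SE 0.17). Of 12 steroidogenic genes 2 rose and 1 fell, with Cyp19a1, the aromatase, at 1.38 (SE 0.25, adjusted p = 0.00201). With arrays scaled to their median, 2 of the 33 rose and 7 fell, and without E15.5 array 1 and E17.5 array 3, 2 rose and 2 fell. Of 15 genes of the ovarian surface epithelium 3 rose and 1 fell: Msln changed by 1.18 (SE 0.29) and Lhx2 by -1.24 (SE 0.14). Of 14 Sertoli-associated genes 3 rose and 0 fell, among them Amh (0.75, SE 0.22), whose call ended without the run term (adjusted p = 0.0725).

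Of 32 genes of stroma and extracellular matrix, 9 rose and 0 fell (median 0.30). Eln, elastin, had levels of 0.15, 0.28 and 0.34 at E15.5 and 1.60, 1.54 and 1.17 at E17.5, a change of 1.16 (SE 0.17, adjusted p = 0.000454). Ogn, a matrix proteoglycan, had -0.19, -0.11 and -0.16 at E15.5 and 0.94, 0.68 and 0.72 at E17.5, a change of 1.10 (SE 0.18, adjusted p = 0.000981). All E17.5 arrays lay above all E15.5 arrays for both. Mfap5, of the microfibrils beside elastin, rose at least 4.47-fold from below background (adjusted p = 0.000209), and the collagen gene Col6a1 rose by 0.61 (SE 0.12). With arrays scaled to their median, 5 genes of the list rose and 3 fell. Of 23 endothelial genes 3 rose and 0 fell, with Vwf, a clotting factor of vessels, at 1.14 (SE 0.20, adjusted p = 0.00145) and Sox18 at 0.53 (SE 0.09). Of 12 smooth muscle and pericyte genes 2 rose and 1 fell, of 11 genes of mesonephros and ducts 2 rose and 0 fell, and of 14 genes of nerve and glia 3 rose and 1 fell. Wnt9b, of the mesonephros, was called (2.03, adjusted p = 0.0416) from levels of -5.86, -6.80 and -3.84 at E15.5 and -5.47, -5.80 and -3.41 at E17.5, where both arrays numbered 3 were the highest of their stage, and the call ended without the run term (adjusted p = 0.594).

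Macrophage and leukocyte genes showed the largest share of rises of any list with 10 or more members: 15 of 25 rose and 0 fell (median 0.67). Fcer1g, a subunit of antibody receptors, had levels of -0.61, -0.43 and -0.27 at E15.5 and -0.18, -0.01 and 0.74 at E17.5, a change of 0.98 (SE 0.18, adjusted p = 0.00236). Csf1r, the growth factor receptor of macrophages, had -1.24, -0.86 and -0.96 at E15.5 and -0.62, -0.38 and -0.30 at E17.5, a change of 0.60 (SE 0.16, adjusted p = 0.0204). The groups did not overlap for either, and E17.5 array 3 was the highest for 14 of the 15 genes that rose. For Lyz2, lysozyme, that array stood far above the others: 2.63, 2.07 and 3.14 at E15.5 and 3.24, 2.86 and 5.51 at E17.5, and the call ended without the run term (adjusted p = 0.173). The same array had the highest red cell level of E17.5, 1.61 against -2.20 and -0.20. Without E17.5 array 3, or without it and E15.5 array 1, 0 of 25 were called and the median was 0.49 or 0.36. Of all 19299 genes 1431 or 1188 were called higher in these fits. Without the run term 14 rose. That fit gave 10 without E17.5 array 3 and 7 without both arrays, beside 3479 and 2833 of all 19299 genes. With E17.5 array 3 left out and no run term, stage and run cannot be told apart. The part of red cell content in this result was not tested.

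**Figure D4:**
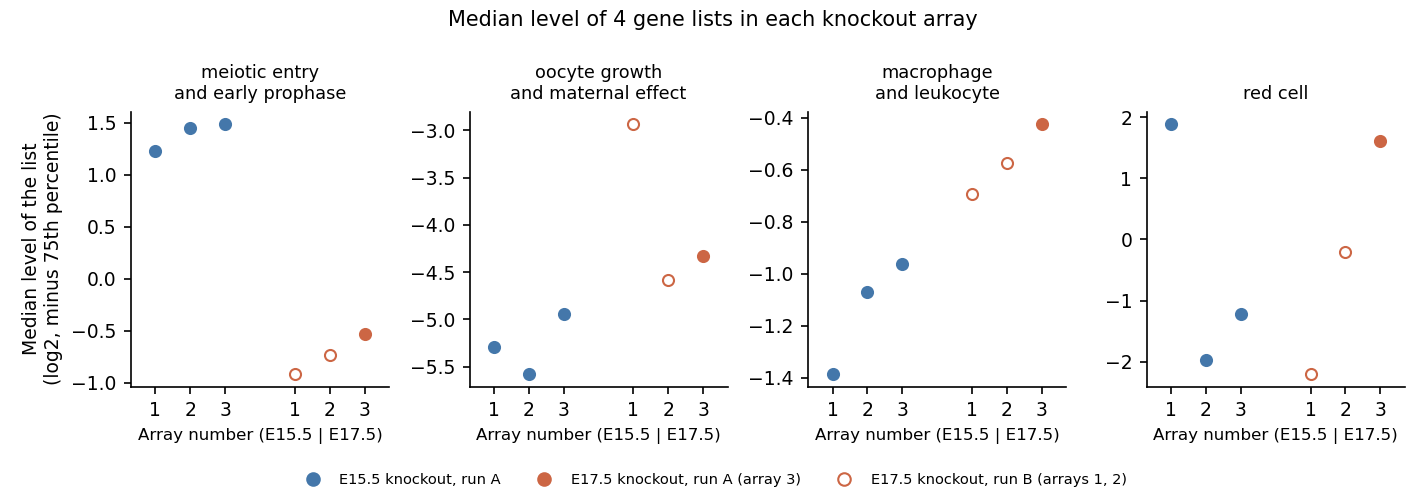
Median level (log2, minus the array's 75th percentile) of 4 gene lists in each knockout array, E15.5 in blue and E17.5 in orange, filled for run A and open for run B. Meiotic entry genes are lower in all 3 arrays of E17.5, oocyte growth genes are highest in E17.5 array 1 (-2.93), and red cell genes are high in E15.5 array 1 (1.89) and E17.5 array 3 (1.61).

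Of the 25 red cell genes, 2 fell and 0 rose, although the median change was 0.54. Hba-x, an embryonic globin of primitive red cells, had levels of -0.34, -0.36 and -1.12 at E15.5 and -5.94, -4.33 and -4.21 at E17.5, a change of -4.36 (SE 0.64, adjusted p = 0.00046). Hbb-y, an embryonic globin of the beta cluster, had 1.39, 1.74 and 0.61 at E15.5 and -3.15, -2.31 and -0.78 at E17.5, a change of -2.91 (SE 0.68, adjusted p = 0.00945). Both genes were lower on every E17.5 array, and their wild type changes were -4.92 and -4.56. The probe of Hba-x was above background on 2 of the 3 E17.5 arrays. The other embryonic globin, Hbb-bh1, gave -1.43 (adjusted p = 0.235). Globin genes are close copies of each other, so their probes may share signal. Within run A the list's median change was 2.01, and the run B arrays differed from E15.5 by -0.49.

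Of 39 genes of cell division and DNA replication, 6 fell (15.4%, against 9.98% of all genes) and 1 rose, with a median of 0.00. Bub1, of the spindle checkpoint, had levels of 3.26, 3.31 and 3.41 at E15.5 and 2.05, 1.89 and 2.06 at E17.5, a change of -1.22 (SE 0.11, adjusted p = 1.26e-05), although 1 of its 2 probes changed the other way. Ccne2, a cyclin of S phase, had 0.32, -0.02 and 0.52 at E15.5 and -0.73, -0.47 and -1.16 at E17.5, a change of -1.58 (SE 0.20, adjusted p = 0.000137). Both were lower on every E17.5 array. Cdc45 and Top2a fell by 0.93 (SE 0.11) and 0.88 (SE 0.16). Cdk1 was the gene that rose (0.43, adjusted p = 0.0186), and its call ended without the run term (adjusted p = 0.703). The list's counts moved with the fit: without the run term 9 fell and 0 rose (median -0.21), without E15.5 array 1 5 fell and 5 rose, and without E17.5 array 3 6 fell and 0 rose (median -0.31).

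Of 30 genes of the p53 response and apoptosis 8 rose and 1 fell (median 0.16). Trp63, whose product guards the genome of oocytes, had levels of -3.97, -3.48 and -3.28 at E15.5 and 1.27, -0.33 and -0.72 at E17.5. The change was 3.41 (SE 0.46, adjusted p = 0.000238), and 4.61 in wild type, with no call for the difference (adjusted p = 0.356). Perp rose by 1.28 (SE 0.25) and the death receptor gene Fas by 1.02 (SE 0.23), while Sesn2 fell by 0.53 (SE 0.08), with 1 of its 2 probes changed the other way. Without E15.5 array 1 and E17.5 array 3, 4 rose and 1 fell, beside 1188 and 972 of all 19299 genes in that fit. Of 23 immediate early and stress genes 4 rose and 0 fell, among them Hmox1 (0.72, SE 0.21) and Klf6 (0.42, SE 0.11), of whose 2 probes 1 changed the other way. With arrays scaled to their median, 0 rose and 1 fell, and without the 2 arrays rich in red cell genes 0 were called. Without the run term as well, where stage and run cannot be told apart, 7 were higher.

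In the fit with the run term, the shares of the signalling lists called higher lay near or below the 11.8% of all genes. They were for example 6.9% of TGF-beta, 10.5% of Notch and 12.5% of retinoic acid genes. Without the run term 10 of 29 TGF-beta, 7 of 25 WNT, 5 of 19 Notch and 3 of 12 hedgehog genes were called higher. These shares lay above the 14.2% of all genes called higher in that fit. The counts of 2 of 16 for retinoic acid and of 1 for glycolysis and for DNA methylation did not move. Of 29 genes of TGF-beta, BMP and activin signalling 2 rose and 2 fell: Id1, a target of BMP signals, had levels of 2.78, 2.91 and 3.28 at E15.5 and 4.70, 4.88 and 4.30 at E17.5, a change of 1.34 (SE 0.17, adjusted p = 0.000181). Of 19 Notch genes 2 rose and 0 fell, the ligand Jag2 by 2.13 (SE 0.33, adjusted p = 0.000731) and the target Hes1 by 0.64 (SE 0.14). Of 25 WNT genes 3 rose and 1 fell, with Dkk3 at 0.83 (SE 0.14) and Dkk1, an inhibitor, at -1.97 (SE 0.48). Of 12 hedgehog genes 1 rose, Gli1 (1.01, adjusted p = 0.0108), whose call ended without the run term (adjusted p = 0.34). Of 16 genes of retinoic acid metabolism and response 2 rose and 1, Stra8, fell. Of 20 cholesterol synthesis genes 3 fell and 0 rose, Stard4 by 0.70 (SE 0.15), Sqle by 0.36 (SE 0.09) and Mvk by 0.37 (SE 0.10), where 10 fell and 2 rose in wild type; without the run term 8 fell in knockout, and 0 of the 20 were called in the difference. Of 22 genes of glycolysis and hypoxia 1 rose, Car9, and of 11 genes of DNA methylation 1 rose, Tet3 (0.45, SE 0.10). Of 20 imprinted and growth genes 1 rose, Dlk1 (0.63, SE 0.11), and 1 fell, Cdkn1c (-0.76, SE 0.17). Of 24 translational regulators of germ cells 4 rose and 2 fell, with Ybx2, which binds stored mRNA, at 1.35 (SE 0.25) and Nanos1 at 1.58 (SE 0.29).

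Over all genes, the largest rises by rule were those of Trim61, Fxyd4, Agr3, Pdzk1, Fbxw18, Ccno, Vil1, Nlrp5, Syt16, Olah, Dcpp2 and Cnpy1, with fitted changes from 4.59 to 6.18. Of these 12 genes 8 were below background on all E15.5 arrays, for which the fold is a lower bound. Trim61 stood at -0.26, -1.67 and -1.77 at E17.5 and rose at least 25.3-fold (adjusted p = 3.23e-06), and Fxyd4 at least 35.9-fold (adjusted p = 0.0221). Ccno, an atypical cyclin, was measured at both stages, -2.53, -2.54 and -1.61 at E15.5 and 4.05, 2.62 and 2.75 at E17.5, and changed by 5.39 (SE 0.54, adjusted p = 2.61e-05). Vil1, villin, an actin-bundling protein, went from -4.31, -4.14 and -3.14 to 1.85, 0.79 and 0.93, a change of 4.99 (SE 0.46, adjusted p = 1.17e-05). Pdzk1, a scaffold protein, rose by 5.45 (SE 0.52). In wild type these 12 genes changed by 4.90 to 7.80, and none was called in the difference between genotypes.

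The largest falls by rule after Stra8 were those of H2-Q2, Cdx2, Hba-x, 1700031F05Rik, Gm7972, M1ap, Elavl3, Hnf4a, Myl7, Gm35953 and Tppp, from -5.49 to -3.24. M1ap, a protein of the first meiotic division, had levels of 5.16, 5.30 and 5.38 at E15.5 and 1.07, 1.19 and 2.18 at E17.5, a change of -3.50 (SE 0.23, adjusted p = 7.96e-07). Myl7, a myosin light chain of heart muscle, had 1.01, 1.33 and 1.12 at E15.5 and -3.22, -2.04 and -1.89 at E17.5, a change of -3.36 (SE 0.33, adjusted p = 2.11e-05). Cdx2, a homeobox gene, was at -4.03, -2.75 and -3.31 at E15.5 and below background at E17.5, a fall of at least 6.07-fold (adjusted p = 0.000104). Hnf4a, 1700031F05Rik and Gm35953 were also below background on all E17.5 arrays, with falls of at least 3.18-, 5.25- and 4.90-fold. Gm7972 was above background on 1 E17.5 array. The fitted changes of these genes thus depend on signal near the background. The size of the fall of H2-Q2, of the major histocompatibility complex, rested on 1 library: its levels were 3.89, 4.10 and 4.01 at E15.5 and 2.01, 2.04 and -3.17 at E17.5, and without E15.5 array 1 and E17.5 array 3 the change was -2.18 (adjusted p = 0.000181) in place of -5.49. H2-Q genes are close copies of each other, so the probe's signal may come from several.

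Most genes that changed in wild type moved the same way in knockout. In wild type 5090 of 19299 genes were called (26.4%), 2954 higher (15.3%) and 2136 lower (11.1%). Of the 2954, 1479 were also called higher in knockout, which is 50.1% of the wild type calls and 65.1% of the knockout calls. Of the 2136, 1290 were also called lower, 60.4% and 66.9%. Among wild type calls, the sign of the knockout change was the same for 96.9% of those higher and 96.5% of those lower, but the 2 contrasts share the run term. Within run A, which needs no such term, the shares were 88.1% of 1626 genes and 92.1% of 1531, but there each genotype has 1 array of E17.5, assumed to vary like the other groups, and both lay on 1 slide. The median change of the genes called higher in wild type was 0.85 there and 0.63 in knockout, and of those called lower -0.57 and -0.51. These genes were chosen by the wild type values, so the medians are a description. Across genes, which are not replicates, the changes of the genotypes correlated with r = 0.84, and with r = 0.62 within run A.

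A change that is called in wild type and not in knockout does not show that they differ, so the difference was tested. It was called for 59 genes (0.306%), 7 with a knockout change above that of wild type (0.0363%) and 52 below it (0.269%), and 2526 genes had an unadjusted p under 0.05. The estimate does not depend on the run term, since each E17.5 group has 1 array of run A. Of the 1468 genes called higher in wild type and not in knockout, 12 were called in the difference, and of the 845 called lower, 1. Among the oocyte growth and maternal effect genes, 32 of 43 rose in wild type (median 2.57) against 17 in knockout (median 0.89), and the knockout change was the smaller in 41 of 43. None of the 43 was called in the difference (smallest adjusted p = 0.104), with 23 at an unadjusted p under 0.05. The count over all genes moved with the array left out: it was 0 without E15.5 knockout array 2 or without array 1 of wild type at either stage. Without E17.5 knockout array 1, the highest of its group for these genes, 264 genes were called, 27 above and 237 below, and 18 of the 43 had a knockout change called smaller than that of wild type.

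**Figure D5:**
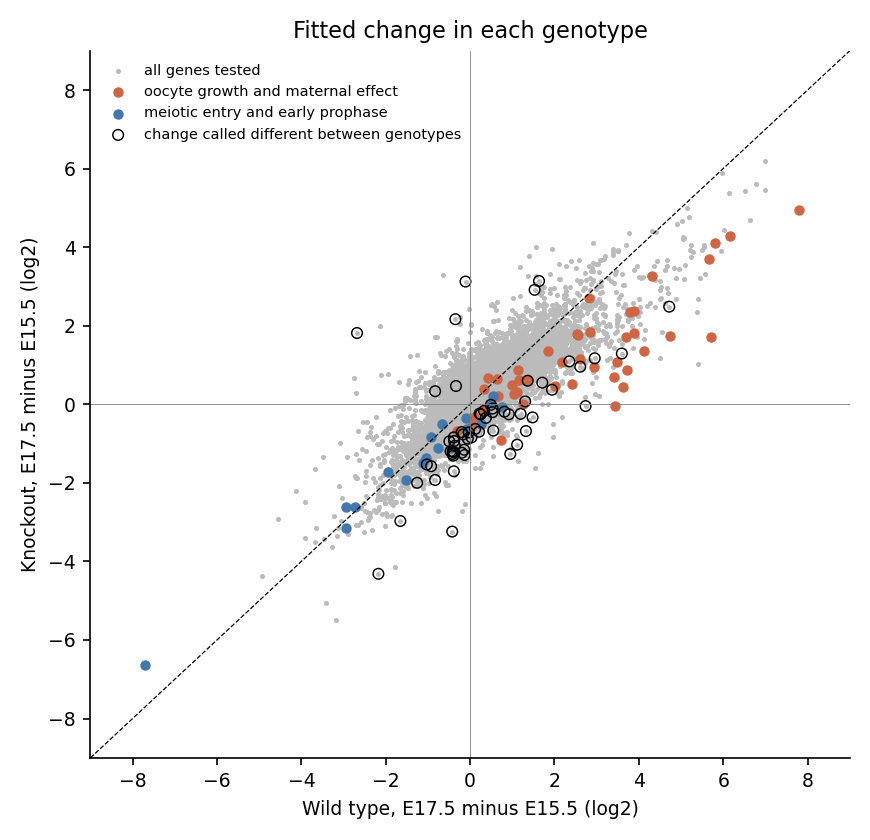
Fitted change from E15.5 to E17.5 (log2) of 19299 genes in wild type (x axis) and knockout (y axis), with the line of equal change dashed; oocyte growth genes are orange, meiotic entry genes blue, and circles mark the 59 genes whose change was called different. Stra8 is the point at the lower left, and 41 of the 43 oocyte growth genes lie below the line.

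In the meiotic lists the difference was called for a pair of genes, Terb2 and Syce1. Terb2 went from -0.87, -0.87 and -0.90 to -1.81, -1.79 and -1.70 in wild type, a fall of 0.83, and from -0.31, -0.15 and -0.21 to -2.21, -2.25 and -2.17 in knockout, so that the knockout change was lower by 1.10 (difference -1.10, SE 0.16, adjusted p = 0.0302). Syce1 went from 3.80, 3.80 and 3.82 to 3.16, 3.45 and 3.77 in wild type, against 3.98, 4.19 and 4.18 to 2.92, 2.56 and 2.72 in knockout (difference -1.04, SE 0.19, adjusted p = 0.0483). For each gene the 3 knockout arrays lay above the 3 wild type arrays at E15.5 and below them at E17.5, so both stages entered the difference. The means of knockout and wild type were -0.22 and -0.88 at E15.5 and -2.21 and -1.77 at E17.5 for Terb2. For Syce1 they were 4.12 and 3.80 at E15.5 and 2.74 and 3.46 at E17.5. The call of Syce1 ended without the run term (adjusted p = 0.075), with the slide as a random block and with the replicate number as a block. It also ended without the filter, with arrays scaled to their median, with array weights and from E15.5 and E17.5 alone. That of Terb2 ended with the replicate block and without the filter. Most fits that left out 1 array ended both calls. In the lists of meiotic entry and of recombination no difference was called, with smallest adjusted p of 0.0598 and 0.0668. Of the pluripotency list Esrrb, an orphan nuclear receptor, was called: it fell in knockout from -4.55, -4.55 and -4.72 to -6.94, -7.06 and -5.24 and in wild type went from -6.23, -5.70 and -6.04 to -5.98, -5.71 and -5.27 (difference -2.14, SE 0.36, adjusted p = 0.0391). E17.5 array 3 of the knockout, at -5.24, was nearest to wild type. The dimmest level above background lay between -6.50 and -5.27, depending on the array. For Esrrb, E17.5 knockout arrays 1 and 2 were thus below background, and the size of its difference depends on signal near it.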

How the data were processed

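RNA of 18 samples was measured on 1-colour Agilent 4x44K arrays. The deposited scanner files hold an intensity per spot, background-subtracted by the authors with Agilent Feature Extraction, for which the submitters' processing notes name version 9.5 and the deposited files' own headers 10.7.3.1. The deposited series matrix holds log2 values and was an alternative.

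Spots of a probe were averaged, and log2 intensity minus the array's 75th percentile was tested with limma 3.58.1 (R 4.3.3; Python 3.11.15 otherwise), with 6 groups, a run term and 11 residual degrees of freedom, at a Benjamini-Hochberg adjusted p under 0.05. A probe was kept if each of the 3 arrays of any of the 6 groups, P0 included, had it well above background (29203 of 41174). The probe brightest on average over all 18 arrays stood for each gene (19299). RefSeq accessions named 28223 probes, and 12951 kept the file's name. A lower bound replaced the fold where a stage was below background on all arrays. In data simulated from the fitted model, 67 of 19299 genes were changed 1.5-fold between the knockout stages, 67 2-fold and 67 4-fold, and no others. Of these, 31.3%, 59.7% and 82.1% were called. In the real data 21.8% of genes were called, so the cutoff set by the adjustment differs and these shares do not carry over. Of the simulated calls 4.92% were false, with noise drawn from the same model that was then fitted. The simulated noise was independent between arrays, so effects of slide or red cell content were not tested.

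Genes were named by rule: the 12 largest rises and 12 largest falls that were called, did not overlap between stages and had the same sign within run A, up to 4 genes of each list by adjusted p, and the 6 largest genotype differences each way. Further genes of the lists were named after their values were seen. The members and lists were chosen with earlier results of these data known. Arrays with the same number at both stages gave correlations of deviations of 0.08, 0.26 and 0.42, so numbers were not taken as pairs.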

Additional observations from a re-analysis of the deposited data

Results flagged for a closer look

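For 15 genes named in the text the change from E15.5 to E17.5 was called different between knockout and wild type. They comprise the 6 largest such differences each way by rule and members of the gene lists. Each value is the knockout change minus the wild type change (log2), with limma's adjusted p, and no explanation of them was tested.

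The knockout change was above that of wild type for Olfr922 (4.50, adjusted p = 0.0197), Usp17lb (3.23, adjusted p = 0.0351), Cdh12 (2.52, adjusted p = 0.0427), Htr5a (1.50, adjusted p = 0.0391), Olfr1030 (1.38, adjusted p = 0.0302) and Hoxd3 (1.16, adjusted p = 0.043). Olfr922, an olfactory receptor gene, stood at -8.04, -7.55 and -6.83 in the E15.5 knockout arrays, below background on all 3, and -5.58, -4.17 and -5.82 in those of E17.5. Usp17lb was above background in the E17.5 knockout arrays and in no other array of these stages.

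It was below that of wild type for Fgf21 (-2.82, adjusted p = 0.0197), Cldn16 (-2.78, adjusted p = 0.0391), Ccdc60 (-2.30, adjusted p = 0.0315), Umodl1 (-2.24, adjusted p = 0.0391), 1700018B08Rik (-2.22, adjusted p = 0.0315) and 1700031F05Rik (-2.14, adjusted p = 0.0315). Umodl1 stood at -8.36, -7.68 and -8.11 in the E15.5 knockout arrays and -5.38, -6.62 and -5.74 in those of E17.5, against -8.52, -8.52 and -8.47 and -4.34, -4.44 and -3.61 in wild type. Fgf21 was above background in the E15.5 knockout arrays alone among these 4 groups, and Cldn16 in those of E17.5 wild type alone, so sizes of their differences depend on signal near the background. The same holds for 1700031F05Rik, above background on no E17.5 array of either genotype, and for Esrrb, as given above.

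Of the gene lists, Esrrb (-2.14, adjusted p = 0.0391), Terb2 (-1.10, adjusted p = 0.0302) and Syce1 (-1.04, adjusted p = 0.0483) were below wild type. No setting turned the sign of any of the 15 differences, but 0 to 264 genes were called in this comparison when 1 array was left out. A kept sign is not a kept call. Of the 59 genes, 43 were also called after normexp and quantile normalization, 11 without the run term and 3 from E15.5 and E17.5 alone.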

How the results depend on the processing

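In knockout 4199 genes were called. Other fits called 1953 within run A (1723 of them among the 4199), 2163 from the knockout arrays alone without a run term (1918) and 2160 without E15.5 array 1 and E17.5 array 3 (1683), and 1303 of the 4199 changed 2-fold or more. Without E17.5 array 3 and without a run term, where stage and run cannot be told apart, 6998 were counted. Leaving out 1 array gave 2512 to 5315 for knockout, 1049 to 5540 for wild type, 820 to 3591 for genes called in both genotypes and 0 to 264 for the difference between genotypes. The lowest came without E17.5 knockout array 3 for knockout and without E17.5 wild type array 3 for wild type and for both, and 264 differences were called without E17.5 knockout array 1. Wild type gave 3157 within run A and 1688 at 2-fold or more. Calls in both genotypes numbered 1209 within run A and 1763 without the 2 arrays rich in red cell genes. The difference, 59 genes, numbered 102 after normexp and quantile normalization, 19 with median scaling, 5 without the filter, 11 without the run term, 19 with array weights, 10 with the slide as a random block, 5 from E15.5 and E17.5 alone, 30 without the 2 arrays and 31 at 2-fold or more. The cause of these shifts was not tested.

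With the replicate number as a block, 2827 genes were called in knockout, 10 in the difference and 1795 in both genotypes; E15.5 array 1 correlated best with E17.5 array 2 and E15.5 array 2 with E17.5 array 1. Under the alternatives 3994 values of named genes kept direction and, where tested, the call, 654 lost the call and 15 turned sign. The 3994 include the knockout arrays numbered 3 set against each other, where only the direction was compared and no test was made. Those 15 were Sycp1 (0.0241 and 0.0238), Zp1 (-0.0276 in both fits without the run term on all arrays or on knockout arrays, and -1.4459 and -0.8969), Astl (-0.7318 and -0.1304), Wnt9b (-0.3138 and -0.1348), Tubb3 (-0.1002 in both such fits, and -0.3107 and -0.2991), all without the run term, and Rdh10 (-0.1001) as the mean of its probes. The alternatives that left out both red cell arrays, or E17.5 array 3 without a run term, were chosen after seeing the data. The strict filter left no gene of the egg coat. Dim genes near the background limit the sizes of change that can be given.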
